A study of Rattus norvegicus with 4 samples.

Results

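A rat miRNA array held 231 miRNAs whose names carry no star and no -3p or -5p ending. Of these, 69 had no signal in samples labelled gracilis muscle, by a rule of signal against error. A miRNA was counted here when its total signal lay below 3 times the error that the scanner software gave it on all 4 arrays. A further 5 miRNAs that met the rule were left out by name, because they belong to sets described for other reasons: miR-124, miR-34b, miR-34c, miR-429 and miR-9. The 69 were 29.9% of the 231 unstarred names and 19.7% of the 350 miRNAs measured. The members were thus selected on their measured signals and errors, so their low values are a description and were not tested.

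The arrays are described as holding total RNA of gracilis muscle, a thigh muscle, from male Sprague-Dawley rats. There were 2 samples after ischemia-reperfusion and 2 after a sham operation, 1 array each. The muscle miRNAs on ischemia-reperfusion array 2 go against this tissue, as given below. For the ischemia-reperfusion samples the labels give 4 h of ischemia and 4 h of reperfusion, whereas the series text gives 4 h of ischemia and 24 h of reperfusion. The sham samples carry no time. Replicates are named biological in the series text, whereas the labels name those of ischemia-reperfusion experimental, and the age of the rats is not given in the sources used here.

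MicroRNAs are short RNAs that guide Argonaute proteins to messenger RNAs, mainly through the seed, the bases near the 5′ end that pair with the target. They are cut from hairpins, several of which may lie on 1 transcript. Many are strongly restricted to a tissue: miR-122 to hepatocytes, miR-375 to endocrine cells such as those of the pancreatic islets, and miR-208a to cardiac muscle, where its hairpin lies in an intron of the myosin gene Myh6. Skeletal muscle is known for miR-1, miR-133a, miR-133b, miR-206 and miR-499 instead.

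Mature sequences of RefSeq (build GRCr8) are shown for the miRNAs the results turn on, 5′ to 3′, with the seed, bases 2 to 8, in capitals. The first 5 had no signal and mark other organs. They are the liver miRNA miR-122, the islet miRNA miR-375, the cardiac miR-208, and the pancreatic neighbours miR-216a and miR-217.
miR-122: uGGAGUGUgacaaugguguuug
miR-375: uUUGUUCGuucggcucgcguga
miR-208: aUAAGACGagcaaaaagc
miR-216a: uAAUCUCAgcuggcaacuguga
miR-217: uACUGCAUcaggaacugacugg
The next lines set miRNAs without signal beside a relative of the same seed that had signal. miR-132 precedes miR-212, and miR-92b, miR-363 and miR-32 precede miR-92a and miR-25.
miR-132: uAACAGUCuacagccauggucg
miR-212: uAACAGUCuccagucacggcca
miR-92b: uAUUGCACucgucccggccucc
miR-363: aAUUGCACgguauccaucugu
miR-32: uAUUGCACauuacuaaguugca
miR-92a: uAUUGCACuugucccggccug
miR-25: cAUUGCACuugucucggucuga
The last lines give miR-7b, without signal, before miR-7a, with signal, and then miR-190 and miR-190b, a seed family with no signal in either member.
miR-7b: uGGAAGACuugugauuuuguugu
miR-7a: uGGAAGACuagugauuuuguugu
miR-190: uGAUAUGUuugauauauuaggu
miR-190b: uGAUAUGUuugauauuagguu

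The number of the 231 unstarred miRNAs at or above 3 errors was 127 on ischemia-reperfusion array 1, 94 on ischemia-reperfusion array 2, 120 on sham array 1 and 135 on sham array 2. All 5 of the skeletal muscle miRNAs named above were at or above the threshold on ischemia-reperfusion array 1 and on both sham arrays. On ischemia-reperfusion array 2 only miR-206 was, at 8.10 units, and the 5 spanned -1.49 to 8.10 units there, so that this library goes against its label as skeletal muscle. Without that array 77 miRNAs met the rule, 8 of them being additional to the 69. In 3 deposited values outside the 69, signal and error were out of step, and they are given among the other observations.

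Among the 69, the highest of the 4 signal-to-error ratios lay below 1 for 42 miRNAs, between 1 and 2 for 17, and between 2 and 3 for 10. The 3 just inside the threshold were miR-194 at 2.76 errors, miR-132 at 2.72 and miR-484 at 2.71. Just outside it were miR-182 at 3.04, miR-382 at 3.11 and miR-130b at 3.51. No gap separated the miRNAs on the 2 sides of the threshold, so membership near it depends on where it was set.

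**Figure D1:**
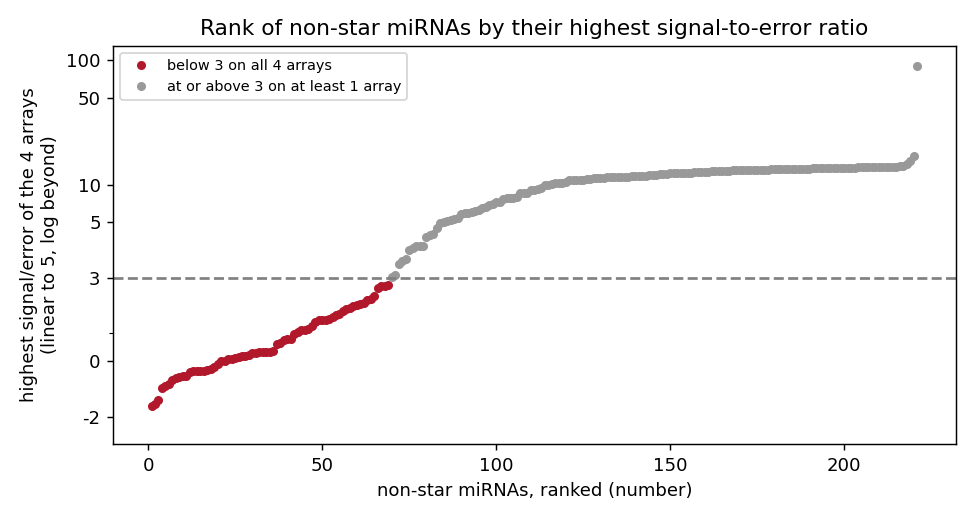
Highest signal divided by its error over the 4 arrays, on an axis linear to 5 and logarithmic beyond, for unstarred miRNAs in rank order, without the 10 left out by name. Red points are the 69 miRNAs below 3 errors on every array and grey points the others; the series passes the dashed line without a step, from miR-194 at 2.76 to miR-182 at 3.04, and the isolated top point is miR-205 at 90.1.

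At the low end, 22 of the 69 had a signal below 0 on every array, which a background-subtracted intensity can have. miR-216a measured -2.93 and -2.87 units on ischemia-reperfusion arrays 1 and 2, against -9.95 and -2.84 on sham arrays 1 and 2. miR-871, of an X-linked cluster known from rodent testis, measured -3.09 and -2.78 units after ischemia-reperfusion, against -16.8 and -3.76 after sham operation. miR-187 measured -3.28 and -2.51 units after ischemia-reperfusion, against -20.0 and -2.99 after sham operation. In these 3 miRNAs the sham array 1 value was the lowest.

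At the high end, 5 of the 69 were above 0 on all arrays: miR-135a, miR-194, miR-484, miR-493 and miR-505. miR-194 measured 6.75 and 3.50 units on ischemia-reperfusion arrays 1 and 2, against 7.90 and 6.56 on sham arrays 1 and 2. miR-484 measured 4.67 and 5.98 units after ischemia-reperfusion, against 3.60 and 6.46 after sham operation. miR-132, a neuronal miRNA induced by activity through CREB, measured 2.86 and 4.19 units after ischemia-reperfusion, against -3.67 and 6.51 after sham operation. In all 3 the groups overlapped.

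The 69 describe the low end of each array. Their median signal was -1.40 units on ischemia-reperfusion array 1 and 0.230 on ischemia-reperfusion array 2, against -7.69 on sham array 1 and -0.827 on sham array 2. Their SD across miRNAs was 2.25, 2.28, 7.90 and 2.51 units in the same order. Sham array 1 thus had the lowest and widest values, and its median error of 5.08 units was also the highest, against 2.01 and 2.07 on the ischemia-reperfusion arrays and 1.91 on sham array 2. Signals below 0 were found for 51, 33, 56 and 44 of the 69 in that order. The 6 control features whose names begin with dmr had medians of -1.22 and 0.100 units on the ischemia-reperfusion arrays and -6.27 and -1.11 on the sham arrays. The 6 named NC1 or NC2 had medians of 0.202 and 5.06 units on the ischemia-reperfusion arrays, against 25.3 and 1.49 on the sham arrays. Sham array 1 was thus the lowest by the 69 and by the dmr features, but the highest by the NC features, whose median error there was 28.2 units, so the position of its zero depends on the features used.

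The errors of the 69 fell on a few levels, set here on sham array 1. The lowest level held 33 miRNAs, and another 33 had an error whose square was about 2 times as large. Between them lay miR-135a and miR-485, at a median squared ratio of 1.34, and above them miR-455, at about 4. At the lowest level the median signal was -2.09 and -0.141 units on ischemia-reperfusion arrays 1 and 2, against -10.9 and -1.35 on sham arrays 1 and 2. At the level of the other 33 it was -0.881 and 0.497 units after ischemia-reperfusion, against -3.67 and 0.0645 after sham operation. The lowest level therefore lay below that other level on all 4 arrays. On sham array 1, 21 of the 33 at the lowest level were more than 2 errors below 0, against 4 of the other 33. The files do not state what sets the level.

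**Figure D2:**
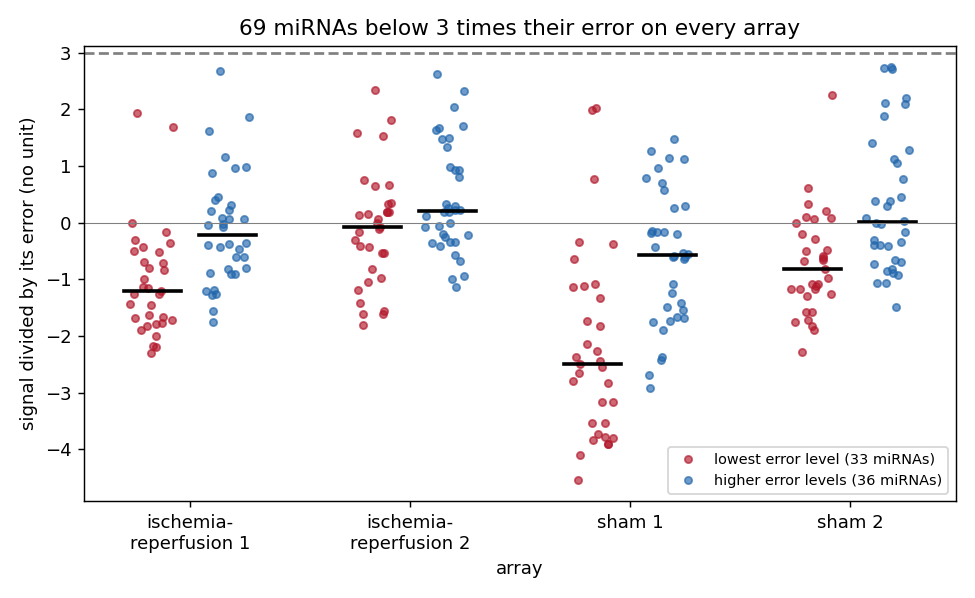
Signal divided by its error (no unit) of the 69 miRNAs on each array, with 1 point per miRNA and black bars at the medians. Red points are the 33 miRNAs at the lowest error level, with medians of -1.20, -0.0781, -2.49 and -0.823 from left to right, and blue points are those at the higher levels; all points lie below the dashed line at 3, and those of sham array 1 reach lowest.

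Across the 69, the rank correlation of the ratios between arrays (Spearman, n = 69 miRNAs, which share array, probes and background) was 0.800 for ischemia-reperfusion array 1 with sham array 2. The other 5 pairs of arrays lay between 0.373 and 0.506, including 0.373 for the pair of ischemia-reperfusion arrays and 0.506 for the pair of sham arrays. The closest pair thus joined arrays of different groups.

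A signal of 3 times the median error of the 69 was 6.04 and 6.20 units on ischemia-reperfusion arrays 1 and 2, against 15.3 and 5.74 on sham arrays 1 and 2. Set against the 75th percentile of the 78 miRNAs at or above threshold on every array, this limit was 0.543% and 6.85% on the ischemia-reperfusion arrays, against 0.430% and 0.436% on the sham arrays. A miRNA without signal is therefore bounded less tightly on ischemia-reperfusion array 2, whose 75th percentile was 90.6 units, against 1111 to 3551 on the others. A level below these limits is not shown to be 0.

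miRNAs of several other organs were among the 69. Of 19 lists of tissue or locus miRNAs, those for liver, pancreas and heart had all their unstarred arrayed members below threshold: 1 of 1, 3 of 3 and 1 of 1. Over all unstarred miRNAs the share was 29.9%. miR-122 measured 0.773 and 0.476 units after ischemia-reperfusion, against -3.30 and -0.380 after sham operation. miR-208 measured -2.93 and -1.70 units after ischemia-reperfusion, against -18.1 and -3.45 after sham operation. miR-375 measured 1.13 and -2.38 units after ischemia-reperfusion, against -14.7 and 5.20 after sham operation. In miR-375 the groups overlapped. In miR-122 and miR-208 both ischemia-reperfusion signals lay above both sham signals, as did 6.86% of all 350 miRNAs. All these values lay below 3 errors, so no difference between the groups is read from them.

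Of the gut, liver and kidney list, miR-194 and miR-215 were below threshold, while miR-192 passed it on sham array 1 alone, at 4.15 errors. Of the sensory organ cluster, known from hair cells and photoreceptors, miR-96 and miR-183 were below threshold, while miR-182 passed it on ischemia-reperfusion array 2 alone. miR-96 measured -0.106 and 3.78 units on ischemia-reperfusion arrays 1 and 2, against -3.74 and 0.873 on sham arrays 1 and 2. None of the 5 muscle, 4 leukocyte, 4 Hox cluster or 2 red cell miRNAs was among the 69. Neither were the 4 of stratified epithelium, but miR-203, miR-31 and miR-135b passed the threshold on ischemia-reperfusion array 2 alone and met the rule without that array. The fourth, miR-205, passed it there, on ischemia-reperfusion array 1 with a value whose error was out of step, and on sham array 2 at 3.24 errors.

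**Figure D3:**
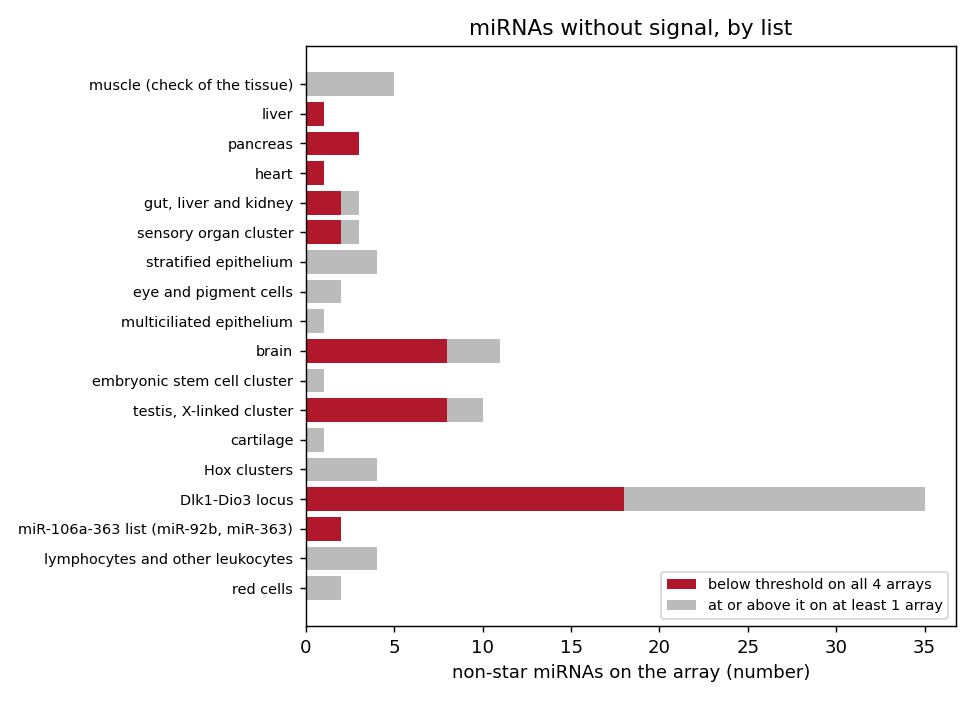
Number of unstarred arrayed miRNAs in each list that has any, split into those below 3 errors on all 4 arrays (red) and those at or above it on at least 1 array (grey). The liver, pancreas and heart lists are wholly red. So is the miR-106a-363 list, which holds only miR-92b, a single hairpin on chromosome 2, and miR-363. The X-linked hairpin group of miR-363 also holds hairpins of miR-92a and miR-19b, which had signal. Both also have hairpins on chromosome 15, so their signal is not assigned to the X-linked group. The Dlk1-Dio3 list holds the most, 18 of 35, beside 29.9% of all unstarred miRNAs.

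Of 11 brain miRNAs, 8 were below threshold (72.7%), beside 29.9% of all unstarred miRNAs. They were miR-129, miR-132, miR-135a, miR-137, miR-138, miR-153, miR-383 and miR-7b. miR-129 measured -2.18 and 4.37 units on ischemia-reperfusion arrays 1 and 2, against -6.74 and -1.69 on sham arrays 1 and 2. The other 3 of that list, miR-128, miR-212 and miR-218, passed the threshold, with miR-212 reaching 590 units. miR-218 did so on sham array 1 alone, at 5.36 errors. miR-9, left out by name, also met the rule. Of the starred or arm names of the list, 9 of 10 were below threshold, beside 47.1% of all such names. Thus brain miRNAs did not fall on 1 side.

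The X-linked cluster expressed in rodent testis had 8 of its 10 arrayed miRNAs below threshold (80%), beside 29.9% of all unstarred miRNAs. They were miR-463, miR-471, miR-742, miR-743b, miR-871, miR-880, miR-881 and miR-883. miR-463 measured -2.23 and -0.0196 units after ischemia-reperfusion, against -8.82 and -2.47 after sham operation. The exceptions were miR-743a and miR-878, whose signals reached 58.8 and 60.5 units, both on sham array 2. Both also passed the threshold on the ischemia-reperfusion arrays, but not on sham array 1, where they lay at 1.38 and 1.43 errors. The sham arrays thus disagreed on them. The RefSeq hairpins of miR-743b and miR-743a are 424 bases apart (GRCr8 chrX:150444098-150444654, minus strand), and those of miR-881 and miR-878 are 372 bases apart.

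The imprinted Dlk1-Dio3 locus on chromosome 6, whose many miRNA hairpins are expressed from the maternal chromosome, gave 18 of its 35 arrayed miRNAs. That is 51.4%, beside 29.9% of all unstarred miRNAs. miR-323 measured -3.07 and -0.907 units after ischemia-reperfusion, against -11.7 and -0.914 after sham operation. In the larger of its hairpin groups (GRCr8 chr6:134543445-134579838, plus strand, 26 arrayed hairpins no more than 10 kb apart), 11 of 23 unstarred miRNAs were below threshold. In the same group miR-494 measured 1739 and 82.2 units after ischemia-reperfusion, against 533 and 2930 after sham operation. A second group of 10 hairpins had 6 of 10 below threshold. Signal and its lack were therefore interspersed in this locus. Chromosome 6 carried 19 of the 69, out of 37 unstarred miRNAs with a hairpin there (51.4%). The X chromosome carried 12 of 33 (36.4%), beside 29.9% of all unstarred miRNAs.

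Most hairpin groups that held any of the 69 were split in this way. Of the 69, 67 matched a RefSeq hairpin (all but miR-343 and miR-383). Of these, 38 lay in 15 groups of at least 2 arrayed hairpins, and 29 had no arrayed neighbour within 10 kb. A miRNA with signal was also present in 13 of the 15 groups. In the X-linked group of miR-363 those with signal (miR-92a, miR-19b and miR-17-5p) also have hairpins on chromosome 15, so that split is not settled. In some groups the only miRNA with signal passed the threshold on 1 array alone. These were miR-182 on ischemia-reperfusion array 2 (3.04 errors), miR-192 on sham array 1 (4.15) and miR-130b on sham array 2 (3.51). Groups were counted only where they held at least 1 of the 69, which were 29.9% of all unstarred miRNAs. The 2 groups wholly without signal were those of miR-194 and miR-215 on chromosome 13, and of miR-216a and miR-217 on chromosome 14. miR-217 measured -2.82 and -0.938 units after ischemia-reperfusion, against -16.6 and -1.92 after sham operation. miR-215 measured -1.96 and 0.653 units after ischemia-reperfusion, against 1.83 and -0.965 after sham operation. At a threshold of 5 errors 6 groups were wholly without signal, at 2 errors 1, and without ischemia-reperfusion array 2 there were 4.

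Close neighbours from known shared transcripts lay on either side of the threshold. The hairpins of miR-132 and miR-212 are 200 bases apart (GRCr8 chr10:60521771-60522133, plus strand), their mature sequences share the seed AACAGUC, and 17 of 22 aligned bases are the same. miR-212 measured 125 and 16.0 units after ischemia-reperfusion, against 590 and 157 after sham operation, while miR-132, given above, reached at most 6.51 units. miR-191 and miR-425 lie 366 bases apart within Dalrd3. miR-191, broadly expressed in many tissues, measured -3.46 and 1.40 units after ischemia-reperfusion, against -16.4 and -1.35 after sham operation. miR-425 measured 41.6 and 4.48 units after ischemia-reperfusion, against 37.1 and 47.8 after sham operation. In both pairs the ischemia-reperfusion array 2 value of the miRNA with signal was its lowest.

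Splits by seed were of the same kind. Mature sequences were assigned to 51 of the 69, and they carried 48 different seeds, of which 40 occurred once among the miRNAs of the array with an assigned sequence. In 6 cases the seed was shared with a miRNA that had signal, and 2 families were wholly without it: miR-190 with miR-190b, and miR-484 with miR-344-5p. For the seed AUUGCAC, miR-92b measured -2.18 and 0.230 units after ischemia-reperfusion, against 8.78 and -1.78 after sham operation. miR-92a, the same as miR-92b at 19 of 21 aligned bases, measured 199 and 90.9 units after ischemia-reperfusion, against 226 and 194 after sham operation. miR-363, whose hairpin lies 64 bases from Mir92a2, measured 2.15 and -0.630 units after ischemia-reperfusion, against -0.989 and 4.43 after sham operation. miR-92a also has a hairpin on chromosome 15, so its signal is not assigned to Mir92a2. The relatives without signal thus reached at most 8.78 units on arrays where miR-92a had at least 90.9.

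miR-7b and miR-7a are the same at 22 of 23 bases. miR-7b measured 0.00520 and 2.77 units after ischemia-reperfusion, against -5.81 and 0.163 after sham operation. miR-7a measured 17.1 and 2.85 units after ischemia-reperfusion, against 45.7 and 16.1 after sham operation. The pair therefore differed on 3 arrays and had nearly the same value on ischemia-reperfusion array 2. miR-135a and miR-135b are also the same at 22 of 23 bases, and miR-135b reached 16.8 units on ischemia-reperfusion array 2 but at most 4.57 on the others. Of the family without signal, miR-190 measured 2.38 and 2.34 units after ischemia-reperfusion, against -3.44 and 2.64 after sham operation. miR-190b measured -0.272 and 0.115 units after ischemia-reperfusion, against -13.9 and 0.119 after sham operation.

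**Figure D4:**
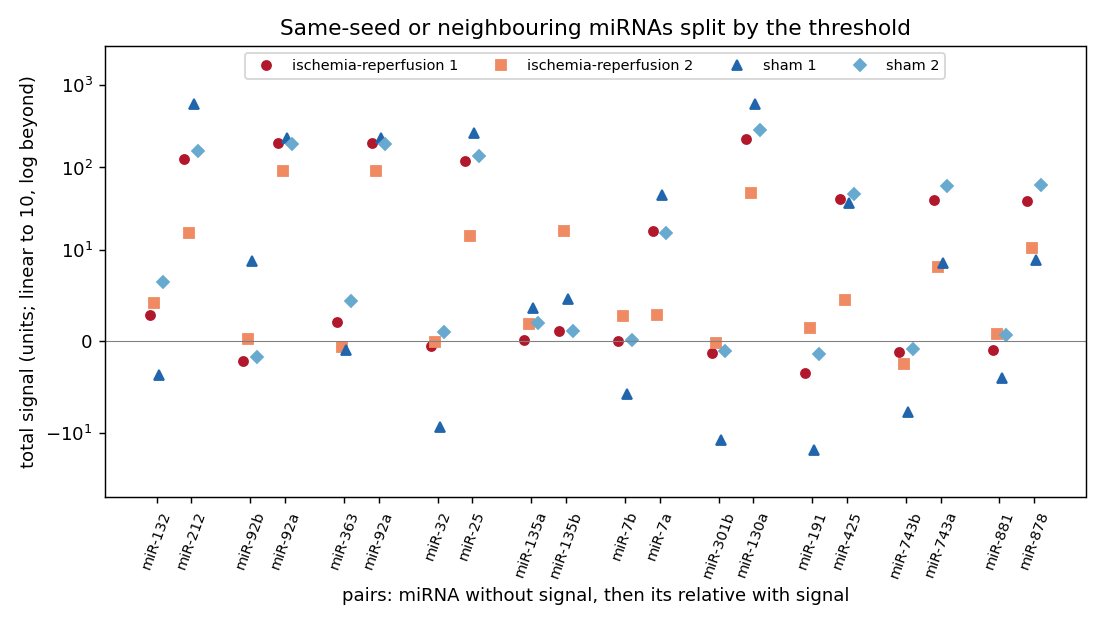
Total signal in units, on an axis linear to 10 and logarithmic beyond, of 10 miRNAs without signal, each followed by a relative with signal that shares its seed or lies beside its hairpin; each symbol is 1 array. The relatives miR-212, miR-92a and miR-130a lie above 10 units on all arrays, and no miRNA without signal does on any.

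Of the 69, 45 stood in a list and 24 in none. The unlisted included miR-489, known in mouse from quiescent muscle satellite cells, miR-184, known from the cornea and lens, and miR-32, whose hairpin lies in Tmem245. The hairpins of 18 of the 69 lie within a protein-coding gene on the same strand, among them those of miR-448 in the serotonin receptor gene Htr2c, miR-488 in the astrotactin gene Astn1 and miR-190 in the talin gene Tln2. miR-32 measured -0.522 and -0.141 units after ischemia-reperfusion, against -9.37 and 1.01 after sham operation.

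Between the groups, 10 of the 69 had both ischemia-reperfusion signals above both sham signals, beside 6.86% of all 350 miRNAs. They were miR-122, miR-137, miR-208, miR-297, miR-330, miR-448, miR-463, miR-466c, miR-770 and miR-871. Both ischemia-reperfusion signals lay below both sham signals in 5 (miR-135a, miR-431, miR-493, miR-495 and miR-505), beside 41.7% of all miRNAs. Since all these signals lie below 3 errors, no fold is given, and no test was made. The median of the 69 was lowest on sham array 1, at -7.69 units, and highest on ischemia-reperfusion array 2, at 0.230. Ischemia-reperfusion array 2, which goes against its label as skeletal muscle, also had the lowest 75th percentile, at 90.6 units. Every count here uses both of these arrays, and what each adds to it was not tested. After division by each array's 75th percentile 5 lay above and 5 below, beside 9.14% and 10.6% of all miRNAs. After division by the error 10 lay above and 3 below, beside 8.29% and 19.4% of all. The counts thus depended on the scale.

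GC share and first base, which the rule did not use, differed little between the 69 and the other unstarred miRNAs. The median GC share of the mature sequence was 45.5% in both (51 and 136 sequences), and the first base was U in 54.9% of the 69 and in 56.6% of the others. The array held 8 names of the other arm of a hairpin of the 69, and 6 of these were also below threshold on all arrays, beside 56 of all 119 starred or arm names (47.1%). The exceptions were miR-296*, at 7.17 and 5.71 units after ischemia-reperfusion and 28.7 and 13.2 after sham operation, and miR-330*, at 8.60 and -0.932 units after ischemia-reperfusion and -10.7 and 12.04 after sham operation.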

How the data were processed

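Cy3-labelled total RNA was hybridised to 1-colour arrays. The submitters' processing notes name Agilent Feature Extraction 9.5.3. Per the file headers, every miRNA has a total signal intensity, an error in the same intensity units, and a detection flag. The deposited intensities were linear, background-subtracted and not scaled between arrays; the series value table held the same values (0 of 1488 differed). The design, slides and scan dates of the arrays were not given in the sources used here.

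From these, 22 control features were left out and signal was divided by error with Python 3.11.15, pandas 2.3.3 and numpy 2.4.6. How well a threshold of 3 errors separates present from absent miRNAs on these arrays was not tested. The number of arrays, 2 in each group, limits the precision. RefSeq tables (GRCr8) gave hairpins for 67 of the 69 miRNAs and mature sequences for 51, of which 9 matched by name and 42 by the arm known to be the guide; 18 were not assigned. Hairpins within 10 kb on 1 strand formed a group. No test was made, because the values chose the miRNAs. Members and lists were chosen with earlier results of these data known.

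Values on every array were given for the first miRNA of each list, for groups and seed families wholly without signal, for the 3 highest and 3 lowest ratios, and for others named as split pairs or unlisted miRNAs, which were picked after their values were seen. Alternatives were thresholds of 2 and 5 errors, the detection flag, leaving out each array, other names, cluster distance, seed, background, limit and scale.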

Additional observations from a re-analysis of the deposited data

How the results depend on the processing

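Membership depended on the threshold and the arrays: 59 miRNAs met 2 errors, 84 met 5, 68 had no detection flag on any array (65 of them shared), and 69 to 78 remained when 1 array was left out. With starred and arm names included 125 did. Of the 69, 45 stood in a list, and 37 to 50 of the listed miRNAs met the rule across the alternatives. The hairpin groups wholly without signal were 2, with 1 at 2 errors, 6 at 5 errors and 2 to 4 when 1 array was left out; of the seed families, 2 in the main setting, 1 was left at 2 errors. With negative control features the zero of the arrays was 0.0164 and 4.85 units on ischemia-reperfusion arrays 1 and 2, and 26.5 on sham array 1. With the median as upper reference the detection limit was 2.82% and 18.5% on ischemia-reperfusion arrays 1 and 2. On sham arrays 1 and 2 it was 2.69% and 2.19%. With the 90th percentile of errors it was 0.525% and 0.536% on the sham arrays. The group counts were 5 above after division by the 75th percentile and 3 below after division by the error. Of 89 alternative values, 74 stayed within the limits set for a change and 15 did not, and the cause was not tested. For background and detection limit, the limit set was the SD between the 2 arrays of a group. The ischemia-reperfusion arrays had detection limits of 0.543% and 6.85%, so the change to 2.82% on array 1 counted as within it. No paired analysis was possible because these results come from no test. Precision is limited by 2 arrays a group. Ischemia-reperfusion array 2 is a further limit, since it goes against its label as skeletal muscle. Its 75th percentile was low, at 90.6 units, but miR-21 measured 3898 units there.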

Other observations

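In 3 deposited values the error was out of step with the signal, and none belongs to the 69 miRNAs without signal. On ischemia-reperfusion array 1, miR-205 was given at 225 units with an error of 2.50 units, a ratio of 90.1, and miR-200c at 122 units with an error of 2.47, a ratio of 49.5. On ischemia-reperfusion array 2 miR-205 measured 228 units with an error of 16.9, and miR-200c 159 units with an error of 11.7. On sham array 1, miR-21 was given at 276 units with an error of 212, a ratio of 1.30. The other 190 miRNA values above 200 units on the 4 arrays had ratios between 9.57 and 16.9. On sham array 1 the 3 other miRNAs whose error was within 10% of that of miR-21 had signals of 3064 to 3109 units, and on ischemia-reperfusion array 1 the 102 others with an error within 10% of that of miR-205 had signals of -4.29 to 41.3 units. The signals of miR-205 and miR-200c on ischemia-reperfusion array 1 were written with 8 significant digits, and they were the only 2 of 1400 miRNA signals with more than 6. The cause was not tested, and any statement that rests on these 3 values, such as a change of miR-21 between the groups or epithelial miRNAs on ischemia-reperfusion array 1, rests on values of this kind. The membership of the 69 does not turn on them, since miR-205 and miR-200c also passed the threshold on ischemia-reperfusion array 2, and miR-21 did on the other 3 arrays.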
